A study of Mus musculus with 6 samples.

Results

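Normal basal epidermis was compared with the normal outer root sheath (ORS), the outer epithelial layer of the hair follicle, across all genes of an oligonucleotide array. The comparison rests on 2 of the 6 arrays of the series, the array labelled Ezh1/2 WT basal epidermal cells and the array labelled Ezh1/2 WT ORS cells, with 1 array in each group. The series holds 3 FACS-purified populations of mouse skin (basal epidermis, hair matrix and ORS) in 2 genotypes, Ezh1/2 WT and Ezh1/2 2KO. Every mouse was 14 days old and of a mixed C57B6 and CD1 background. RNA of both WT groups came from female and male mice, and the 2KO pair, set beside the WT pair at the end, came from female mice (basal epidermis) and from mice of both sexes (ORS). In which cells Ezh1 and Ezh2 were deleted is not given in the sources used here. How many mice were pooled for each array, whether the populations came from the same mice and which surface markers were sorted on are not given in the sources used here, except that the design text refers the purification to Rendl et al. With 1 array per group no difference has a replicate check, and no test was made. Of 18193 genes with a probe set of their own, 11320 were measured on at least 1 of the 2 arrays.

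Basal epidermis and ORS are continuous sheets of keratinocytes that share the keratins Krt5 and Krt14 and the integrins that hold them to the basement membrane. Basal epidermal cells divide, leave the membrane and turn on Krt1, Krt10 and then the proteins of the cornified envelope, which make the skin barrier. The ORS encloses the growing hair, feeds the matrix and contains the follicle's stem cells, whose identity depends on transcription factors such as Sox9, Lhx2 and Tcf7l1.

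Values are MAS5 signals in array units, 1 per gene, taken from the brightest probe set of the gene. A floor of 83.2, the middle value of the non-control probe sets of all 6 arrays, replaced lower signals before a ratio was taken. A gene below the floor on both arrays counted as not measured. Where 1 side lay below it, the deposited signals of that probe set have a larger ratio than the floored one. The text gives the floored ratio as at least so many fold, which sets no bound on other probe sets or on error. Genes that reached 2-fold, the fold of the series text, are called higher in one population. Where a pair of signals is given, basal epidermis comes first and ORS second. The median signal was 72.6 in basal epidermis and 83.1 in ORS, 47.7% and 49.9% of probe sets lay above the floor, and the 3-prime to 5-prime ratio of the actin control probe sets was 1.39 and 1.43.

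The markers of the pair separated the arrays, with 1 exception. Krt1, a keratin of cells that have left the basal layer, read 16394 in basal epidermis, 732 in ORS and 462 in WT matrix, a 22.4-fold difference between basal epidermis and ORS. Krt77, another epidermal keratin, read 7616 and 1937 (3.93-fold) and 221 in matrix. Lhx2, a LIM homeodomain factor of the follicle, read 141 and 4349 and 2644 in matrix, so that it was 30.8-fold higher in ORS than in basal epidermis. Sox9, the SRY-box factor of the ORS and its stem cells, read 3017 and 5089. That is 1.69-fold higher in ORS and did not reach 2-fold, while matrix read 186. The second measured probe set of Sox9 gave a log2 ratio of -0.83, close to the -0.75 of the brightest. The basal epidermis array was bright for suprabasal as well as basal keratins, with 28000 for Krt10 beside 26576 for Krt14, and the label of this population is used here as given.

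**Figure D1:**
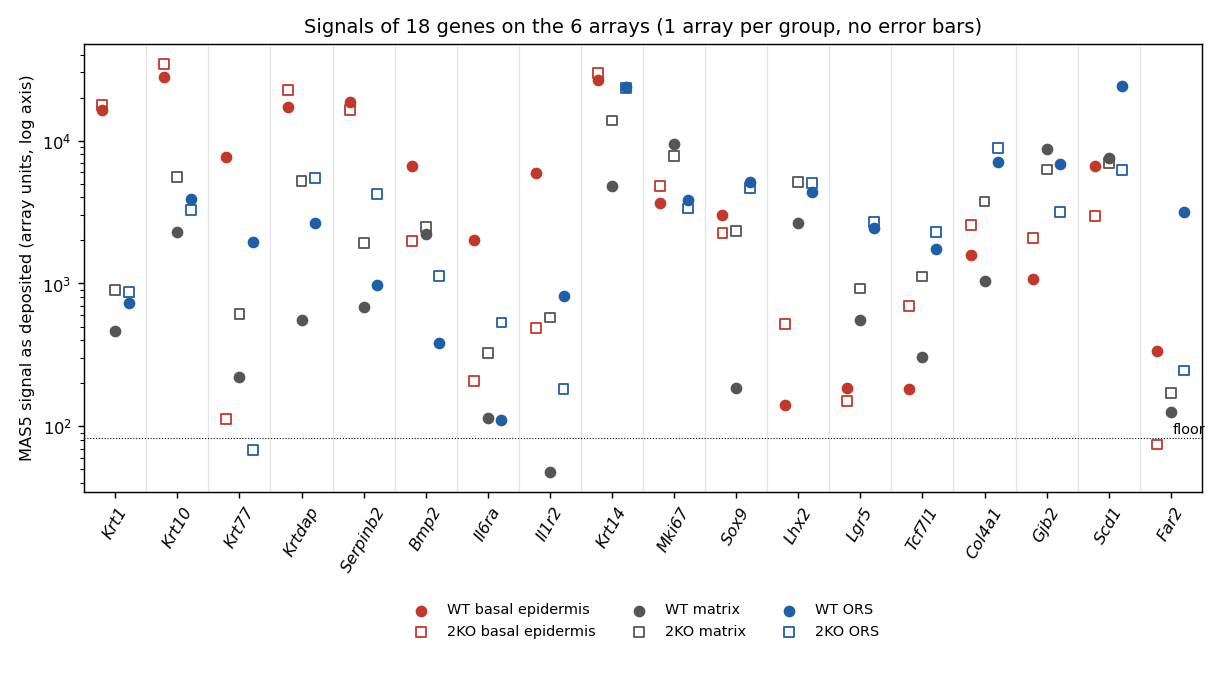
MAS5 signals as deposited (log axis, array units) of 18 genes on the 6 arrays, filled circles for WT and open squares for 2KO, with 1 array per group and no error bars. Krt1 lay at 16394 in WT basal epidermis and 732 in WT ORS, and Lhx2 at 141 and 4349.

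Of the 11320 measured genes, 470 (4.15%) reached 2-fold towards basal epidermis and 666 (5.88%) towards ORS, and 10184 (90.0%) lay within 2-fold. At 4-fold the counts were 115 and 152, and at 8-fold 33 and 35. The ORS signal lay below the floor for 70 (14.9%) of the genes higher in basal epidermis, and the basal epidermis signal for 137 (20.6%) of those higher in ORS. Basal epidermis took 41.4% of the calls as deposited, 56.2% when both arrays were given a common median and 30.3% when they were matched on the spiked hybridisation controls. Over all measured genes the log2 ratio of basal epidermis to ORS had a median of -0.03, and of 0.16 and -0.17 under those scalings. Of 476 called genes with another measured probe set, 467 (98.1%) had the same sign in all of them, though often not the same size. The next count leaves out genes named outside the naming rules given under processing, such as Grhl3, Mmp3 and Avpr1a. Among the genes past 2-fold named by rule, 86 had another measured probe set, and in 28 of these at least 1 such probe set lay under 2-fold. They were Cmah, Ivl, Wnt7b, Apcdd1, Inhbb, Tgfb2, Bmpr1b, Egfr, Fgfr1, Nrp2, Efnb2, Robo1, Hoxd8, Hoxb3, Bnc2, Ets1, Gadd45b, Coro1a, Lyz1, Pkp2, Cdh13, Lss, Cyp1b1, Lrat, Slc1a3, Igfbp7, Kdm6b and Jarid2.

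**Figure D2:**
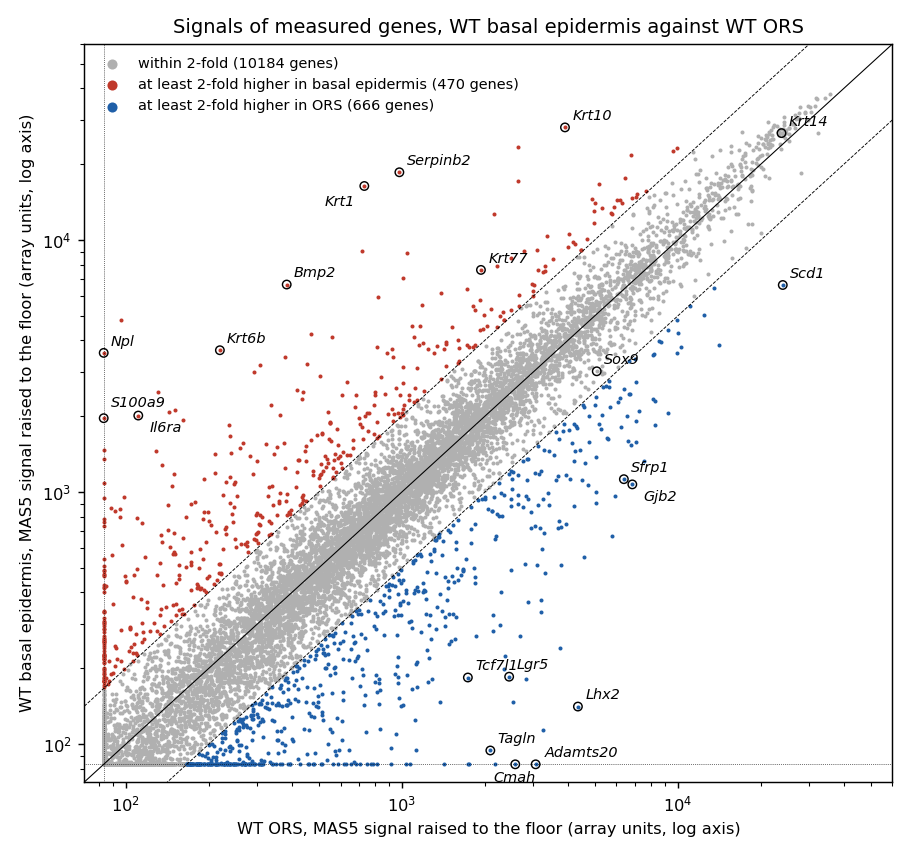
Signals of the 11320 measured genes in WT ORS (x) and WT basal epidermis (y), raised to the floor, on log axes in array units, with a solid line at equality and dashed lines at 2-fold. The 470 genes higher in basal epidermis are red and the 666 higher in ORS are blue. Krt14 lies near the line of equality, and Krt1 and Lhx2 lie far from it on opposite sides.

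The 20 genes furthest on the side of basal epidermis included 3 protease inhibitors of the Serpinb family and the keratins Krt1 and Krt6b. Serpinb2, an inhibitor of plasminogen activators, read 18584 and 980.5 (19.0-fold), Serpinb1a read 2505 and 131 (19.2-fold, and 4.11-fold on its other probe set) and Serpinb7 read 1359.5 and 20.6 (at least 16.3-fold). Krt6b, a keratin of activated keratinocytes, read 3657 and 219 (16.7-fold). Npl, the lyase that breaks down sialic acid, read 3569 and 70.7 (at least 42.9-fold). S100a9, a subunit of the antimicrobial protein calprotectin, read 1966 and 65.5 (at least 23.6-fold), and Tgm3, a transglutaminase that crosslinks the cornified envelope, read 1469.8 and 70.9 (at least 17.7-fold, and 2.99-fold on its other probe set). Signalling was represented by Bmp2, a BMP ligand, with 6664 and 383 (17.4-fold), and by Il6ra, the ligand-binding chain of the interleukin 6 receptor, with 2013 and 111 (18.1-fold, and 3.10-fold on its other probe set). Ion transport was represented by the chloride channel Ano1 (3009 and 292, 10.3-fold), the chloride channel regulator Clca2 (2113 and 151, 14.0-fold) and the cation exchanger Slc24a3 (1452 and 129, 11.3-fold). The remaining members were Oas1f (2081 and 143, 14.6-fold), Cyp3a13 (1092 and 75.9, at least 13.1-fold), Fcgbp (9093 and 717, 12.7-fold), Tmprss4 (1930 and 161, 12.0-fold), Gdpd2 (946 and 6.04, at least 11.4-fold), Mettl7a1 (3199 and 306, 10.5-fold) and Cd55 (864 and 88.4, 9.78-fold), where Oas1f belongs to the interferon-induced oligoadenylate synthetases and Cd55 protects cells from complement.

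The promoters of the genes furthest towards basal epidermis were searched for short motifs, because many epidermal genes are known to be driven by AP-1, the dimer of Fos and Jun proteins. The window ran from 250 bases before to 50 after each start in RefSeq (GRCm38.p6), a gene with several starts counted when any window held the motif, and both strands were read. The AP-1 motif TGANTCA, which reads the same on both strands, was in the windows of 21 of 98 genes (21.4%) that lay 4-fold or more towards basal epidermis and of 6 of 107 genes (5.61%) that lay 4-fold or more towards ORS, against 574 of 9167 measured genes (6.26%). Among genes with 1 window the shares were 17 of 78 (21.8%), 2 of 89 (2.25%) and 335 of 7294 (4.59%). The TATA box letters TATAAA were in 25.5%, 15.0% and 9.02% of the same groups, the GATA letters AGATAA in 14.3%, 12.2% and 7.47%, the TCF/LEF letters CTTTGAT in 5.10%, 3.74% and 3.03%, and the LIM homeodomain letters TAATTA in 3.06%, 6.54% and 3.12%. These windows had a median GC content of 56.0%, 62.7% and 61.0%, and the part of base composition in the motif shares was not tested. The genes with an AP-1 motif, some of them chosen for naming after their values were seen, included Serpinb2, Serpinb7, Serpinb8, Serpinb11, Serpinb12, Sprr1b, Sprr2d, Sprr2h, Krtdap, Fam25c, Mmp3, Il20ra and Il1rn on the side of basal epidermis, and were Fblim1, Gask1b, Acot5, Rdh9, Igfbp2 and Me1 on the side of ORS. Members of the Serpinb and Sprr families were each counted as a separate gene.

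**Figure D3:**
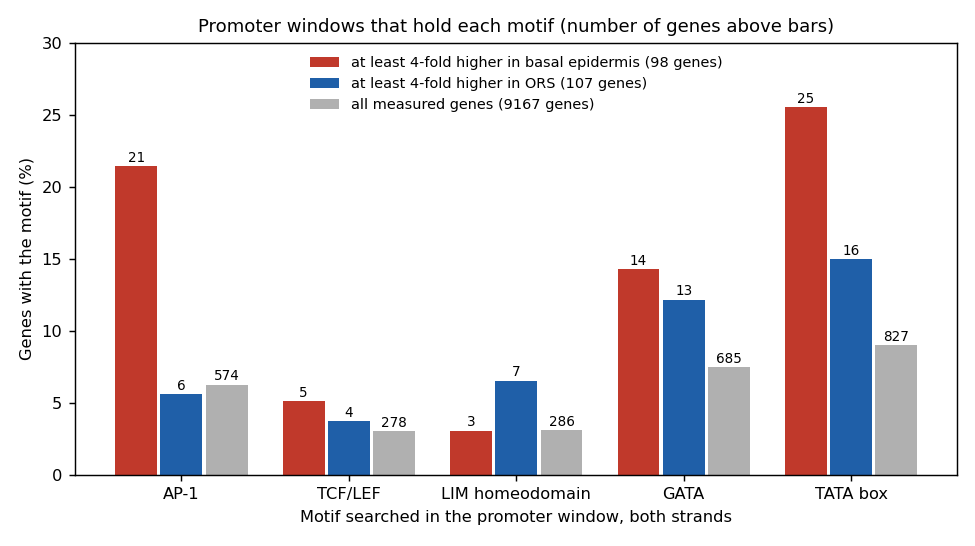
Share of genes (%) whose promoter window holds each of 5 motifs, for genes 4-fold or more towards basal epidermis (98 with a promoter sequence), 4-fold or more towards ORS (107) and all measured genes (9167), with the number of genes above each bar. For AP-1 the bars stand at 21.4%, 5.61% and 6.26%.

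The 250 bases before the start are printed for the first 4 genes, in order of their ratio, with 1 window and an AP-1 motif in these bases, to show where the motif sits. They run 5′ to 3′ on the gene's strand, come from RefSeq (GRCm38.p6) and have the AP-1 motif in capitals. Serpinb7 (chr1:107422439-107422688, plus strand) and Mmp3 (chr9:7445572-7445821, plus strand) carry it 45 and 46 bases before the start. Cyp3a13 (chr5:137921620-137921869, minus strand) carries it 91 bases before the start, and Sprr2d (chr3:92338890-92339139, plus strand) 193 bases before. The TATA box letters lie 29 bases before the start in Sprr2d, 7 bases before it in Mmp3, and 33 and 239 bases before it on the other strand in Serpinb7. A match is a description of these letters and not a binding site. Mmp3 encodes the matrix metalloproteinase stromelysin, with signals of 855 and 95.5 (8.95-fold), and Sprr2d a small proline-rich protein of the cornified envelope, with signals of 796 and 95.05 (8.38-fold).
Serpinb7: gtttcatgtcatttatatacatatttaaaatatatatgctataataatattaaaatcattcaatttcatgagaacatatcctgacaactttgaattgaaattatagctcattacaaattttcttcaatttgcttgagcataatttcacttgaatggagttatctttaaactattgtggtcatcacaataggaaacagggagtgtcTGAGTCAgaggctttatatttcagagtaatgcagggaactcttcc
Cyp3a13: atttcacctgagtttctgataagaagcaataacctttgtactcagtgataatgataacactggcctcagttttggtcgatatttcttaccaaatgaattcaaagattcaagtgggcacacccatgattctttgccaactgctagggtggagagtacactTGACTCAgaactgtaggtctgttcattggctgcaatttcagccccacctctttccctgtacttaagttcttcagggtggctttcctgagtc
Mmp3: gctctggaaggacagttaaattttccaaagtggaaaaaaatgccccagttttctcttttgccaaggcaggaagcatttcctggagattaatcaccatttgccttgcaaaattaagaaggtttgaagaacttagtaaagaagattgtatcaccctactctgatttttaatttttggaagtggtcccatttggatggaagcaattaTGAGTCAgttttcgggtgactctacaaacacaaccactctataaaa
Sprr2d: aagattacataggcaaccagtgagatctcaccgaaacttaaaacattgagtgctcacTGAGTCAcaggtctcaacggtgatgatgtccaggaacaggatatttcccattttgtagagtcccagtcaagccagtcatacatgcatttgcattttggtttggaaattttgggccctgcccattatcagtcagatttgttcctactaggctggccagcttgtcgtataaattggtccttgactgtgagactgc

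The 20 genes furthest on the side of ORS held follicle stem cell genes, guidance and developmental regulators, and genes of the actin cytoskeleton. Lgr5, the R-spondin receptor that marks cycling follicle stem cells, read 185 and 2450.3 (13.2-fold), and Cd34, a surface sialomucin of bulge cells, read 81.5 and 1036 (at least 12.4-fold). Tbx1, a T-box factor, read 198 and 2345 (11.9-fold). Among secreted and membrane regulators, Adamts20, a secreted metalloproteinase, read 35.4 and 3057 (at least 36.7-fold), Sema3e, a secreted semaphorin, read 182 and 2812 (15.5-fold), and Shisa2, which retains WNT and FGF receptors inside the cell, read 44.9 and 2173 (at least 26.1-fold). Cmah, the hydroxylase that converts one sialic acid into another, read 59.1 and 2579 (at least 31.0-fold), and the lowest of its 5 other probe sets gave 1.37-fold. The contractile proteins Tagln and Myl9 read 94.4 and 2094 (22.2-fold) and 268 and 2683 (10.02-fold), and Cavin2, a coat protein of caveolae, read 223 and 2376 (10.6-fold). The others were the methyltransferase Gnmt (114 and 3260.2, 28.6-fold), the amino acid transporter Slc7a8 (147 and 2538, 17.2-fold), the ubiquitin ligase Pdzrn3 (241 and 3760, 15.6-fold), Scrg1 (38.4 and 1749.6, at least 21.0-fold), Krtap17-1 (65.5 and 1734, at least 20.8-fold), Fndc1 (63.7 and 1429, at least 17.2-fold), Pm20d1 (79.1 and 1073, at least 12.9-fold), Ism1 (94.6 and 1129, 11.9-fold) and Lrrc75b (68.6 and 913, at least 11.0-fold).

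Most genes of the suprabasal programme were higher in basal epidermis. Of 24 measured suprabasal genes, 15 reached 2-fold towards basal epidermis and 2 towards ORS, with a median log2 ratio of 1.42. This and every later list count is to be read against the shares of all measured genes. Those were 4.15% higher in basal epidermis and 5.88% higher in ORS. Krt10, the partner of Krt1, read 28000 and 3904 (7.17-fold), Krtdap, a secreted differentiation peptide, 17132 and 2639 (6.49-fold), and Dsg1a, a desmosomal cadherin of upper layers, 4241 and 471 (9.01-fold). Fam25c read 4125 and 559.8 (7.37-fold). The exceptions were Calml3, a calmodulin-like protein, with 319 and 1568 (4.92-fold higher in ORS), and the protease inhibitor Cst6 with 1863 and 5189.8 (2.79-fold higher in ORS). In these bulk samples fewer cells of a type and less RNA per cell cannot be told apart.

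The next step of differentiation did not go the same way as a group. Of 34 matched cornified envelope genes, 13 lay below the floor on both arrays. Of the 21 measured, 4 were higher in basal epidermis and 2 in ORS, and the median was -0.20, or 0.04 without cross-hybridising probe sets. The 4 were small proline-rich proteins and a protease inhibitor, namely Sprr2d, Sprr1b (1847 and 236, 7.83-fold), Sprr2h (446 and 101, 4.43-fold) and Spink5 (189.7 and 53.2, at least 2.28-fold). The 2 were Lcn2 (2291 and 8296, 3.62-fold) and involucrin, Ivl (295 and 796, 2.70-fold, but 1.65-fold on its other probe set). Lcn2 encodes a siderophore-binding protein, which the antimicrobial list also holds, and is not itself an envelope protein. Loricrin (Lor), the bulk protein of the envelope, read 308 and 352, and filaggrin (Flg), which bundles keratin filaments, 207 and 179.6, both within 2-fold.

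Of 18 measured genes of the basal layer, 17 lay within 2-fold, as did 90.0% of all measured genes, and the median was 0.35. Krt5 read 28092 and 22122, Krt14 26576 and 23776, Krt15 28535 and 22416, and Trp63, the master regulator of stratified epithelia, 10141 and 10485. The 1 gene past 2-fold was Lamb3, a chain of the basement membrane laminin of skin, with 6043 and 2656 (2.27-fold higher in basal epidermis). Of the 13 surface proteins used in sorts of skin, 2 were higher in ORS, namely Cd34 and Cd200 (544 and 1706, 3.14-fold), and 2 in basal epidermis, namely Ly6d (23158 and 9936, 2.33-fold) and Thy1 (1142 and 566, 2.02-fold). The median of these 13 was -0.04, and 0.16 with a common median. The integrin chains Itga6 and Itgb1 read 14238 and 10746 and 2676 and 3006.

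Of 44 measured genes of ORS and stem cells, 18 were higher in ORS and 3 in basal epidermis, with a median log2 ratio of -0.81. The 6 furthest on the side of ORS were Lhx2, Lgr5, Cd34 and Tbx1, then Tcf7l1, a TCF factor that holds stem cells undifferentiated, with 184 and 1736 (9.44-fold), and Aspn, a small leucine-rich proteoglycan, with 219.5 and 1257 (5.72-fold). The 3 genes on the other side were Krt6b, its partner Krt16 with 8878 and 1046 (8.49-fold), and Sox21 with 2434 and 802 (3.04-fold). Krt17 read 15856 and 18575, Nfatc1, a bulge factor, 1203 and 1291, and Lgr6, a marker of the upper follicle, 2292 and 1627, all within 2-fold. Genes of the hair-forming compartments (matrix, inner sheath and shaft) had summed signals of 18717 in basal epidermis and 12897 in ORS against 123266 in matrix. Of 30 measured, 3 were higher in basal epidermis (Ovol1 (4569 and 1168, 3.91-fold), Krt32 (1528 and 448, 3.41-fold) and Krt33a (423 and 183, 2.31-fold)) and 2 in ORS (Hoxc13 (189 and 726, 3.84-fold) and Padi3 (123 and 307, 2.51-fold)), with a median of 0.21. The shares over all measured genes were 4.15% and 5.88%.

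**Figure D4:**
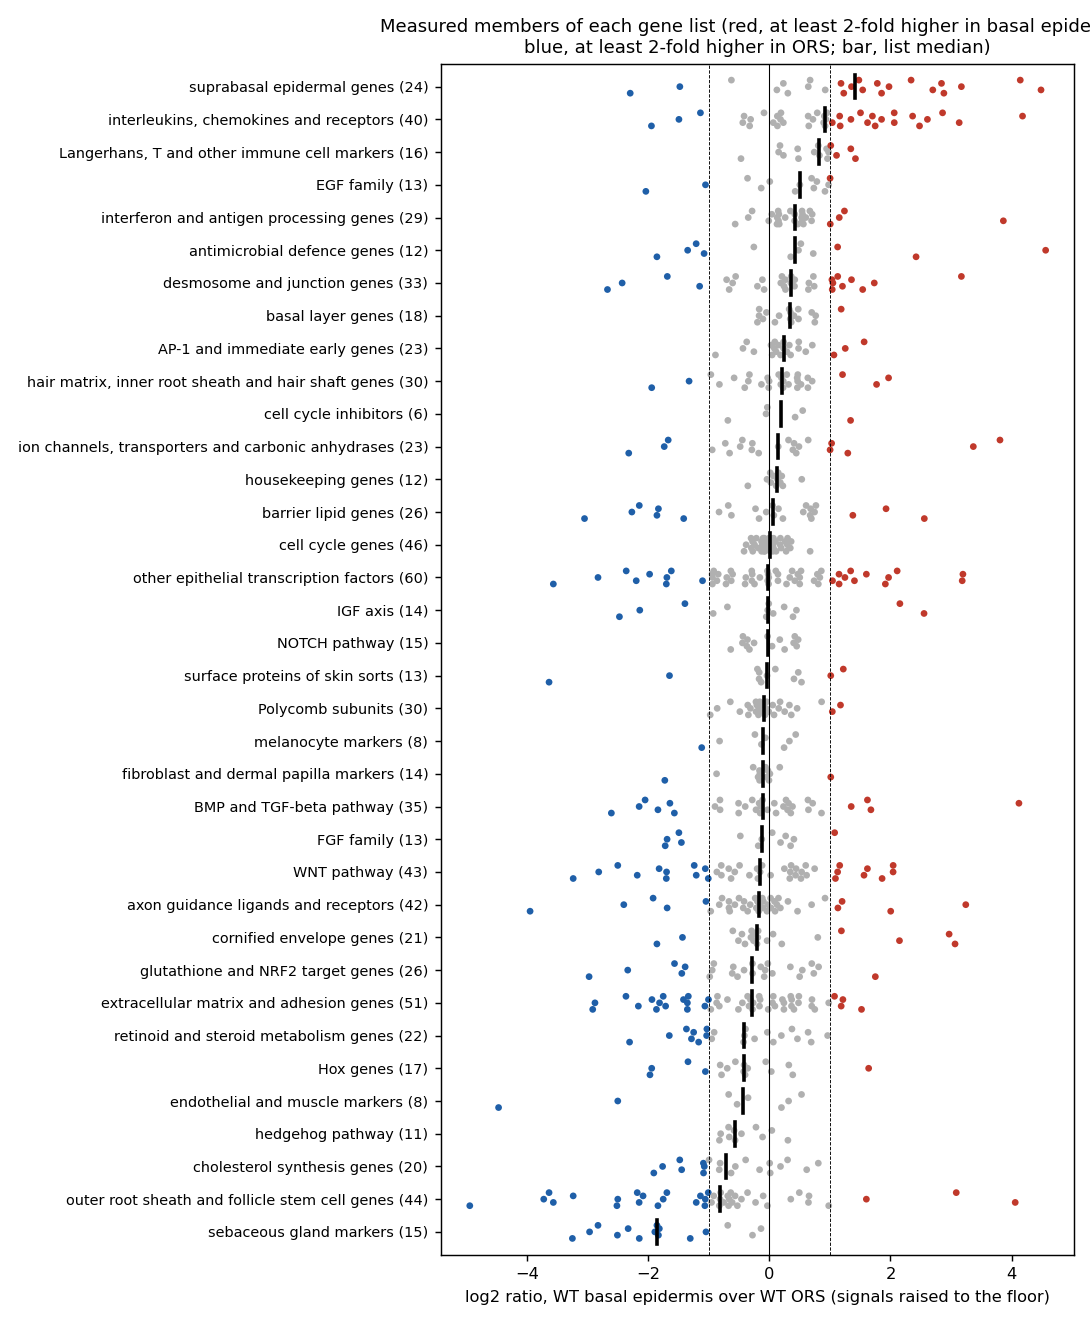
Log2 ratio of WT basal epidermis over WT ORS for each measured member of 36 gene lists with at least 5 measured members, red for genes past 2-fold towards basal epidermis and blue towards ORS, with the list median as a black bar and the number measured in brackets. The medians run from -1.86 for sebaceous gland markers to 1.42 for suprabasal genes, and the cell cycle genes lie together near 0.

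Over the 43 measured WNT genes 8 were higher in basal epidermis and 11 in ORS, and the median of -0.15 became 0.04 with a common median. Among the ligand genes, Wnt4 read 4508 and 1526 (2.95-fold), Wnt7b 742 and 204 (3.63-fold, but 1.03-fold on its other probe set) and Wnt16 256 and 26.6 (at least 3.07-fold), and of 11 measured Wnt genes 5 were higher in basal epidermis and 2 in ORS, Wnt5b (128 and 302, 2.36-fold) and Wnt9a (6.96 and 309.7, at least 3.72-fold). Among receptors, Fzd2 read 176 and 1241 (7.05-fold), Fzd7 833 and 2943 (3.53-fold) and Fzd1 1113 and 3622 (3.25-fold). Of 10 measured Fzd genes 5 were higher in ORS and 1, Fzd10, in basal epidermis with 783 and 189.9 (4.12-fold), and the family's median log2 ratio was -1.04. These family counts were made after the values had been seen, and the difference between the families was not tested. The LDL-receptor-related Lrp4, a modulator of WNT signalling, was higher in basal epidermis with 1422 and 345 (4.12-fold), as was Apcdd1, a membrane inhibitor and WNT target, with 12798 and 5722 (2.24-fold). The secreted inhibitors Sfrp1 and Dkk3 were higher in ORS, with 1126 and 6382 (5.67-fold) and 177 and 801 (4.54-fold), and so was the TCF factor Tcf7l1.

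In the BMP and TGF-beta pathway, ligands stood on both sides. Bmp2 and Bmp4 (343 and 134, 2.55-fold) were higher in basal epidermis, together with the type I receptor Bmpr1b (367 and 119, 3.07-fold, with both other probe sets under 2-fold) and the TGF-beta-induced matrix protein Tgfbi (16647 and 5207, 3.20-fold). Tgfb2 (184 and 658, 3.58-fold, and 1.59-fold on the lowest of its 3 other probe sets), Tgfb3 (461 and 1439.6, 3.12-fold) and the activin subunit gene Inhbb (731 and 3029.5, 4.15-fold, and 1.90-fold on its other probe set) were higher in ORS. So were the TGF-beta-binding protein gene Ltbp2 (74.9 and 369, at least 4.44-fold), the inhibitory Smad6 (216 and 642, 2.97-fold) and Id4 (969 and 5912, 6.10-fold), a helix-loop-helix target of BMP signalling. Of 35 measured members 4 were higher in basal epidermis and 6 in ORS, against 4.15% and 5.88% of all measured genes. The median was -0.11 and became 0.04 with a common median and 0.02 after loess.

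No measured hedgehog or NOTCH gene reached 2-fold, and 90.0% of all measured genes did not. Of 11 measured hedgehog genes 9 had a ratio below 0, with a median of -0.57, and the readouts of the pathway read 102 and 179 for Gli1 and 1248 and 1974 for Ptch1, against 656 and 4601 in matrix. The ligand gene Shh lay below the floor in basal epidermis (56.2) and at 147 in ORS, against 1112 in matrix. The 15 measured NOTCH genes had a median of -0.03 (0.17 with a common median), and Notch1 itself read 4051 and 3927.

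Among receptor tyrosine kinases, Egfr, the EGF receptor, read 1862 and 3868 (2.08-fold higher in ORS, with its 3 other measured probe sets under 2-fold). Its relative Erbb3 read 5999.9 and 2994 (2.00-fold higher in basal epidermis), a call that fell below 2-fold under hybridisation-control, quantile and loess scaling. The ratio changed sign when all probe sets of Erbb3 were averaged, although its other probe sets lay below the floor on both arrays. The ligand Nrg4 was higher in ORS with 33.5 and 342 (at least 4.11-fold), while the ligand genes Hbegf (14837 and 7851) and Tgfa (1015 and 515) were 1.89-fold and 1.97-fold higher in basal epidermis and so within 2-fold. The 13 measured EGF family genes had a median of 0.50, with 1 higher in basal epidermis and 2 in ORS. The shares over all measured genes were 4.15% and 5.88%. Of the FGF receptors, Fgfr1 was higher in ORS with 669 and 2203 (3.29-fold), and Fgfr2, the receptor that epithelia use for FGF7-type ligands, higher in basal epidermis with 5259 and 2491 (2.11-fold). The ligand Fgf1 (71.7 and 268, at least 3.22-fold), the carrier Fgfbp3 (201 and 566, 2.82-fold) and the feedback inhibitor Spry4 (79.8 and 228, at least 2.74-fold) were higher in ORS. The 13 measured FGF genes had 1 call in basal epidermis and 4 in ORS, and a median of -0.13 (0.01 with a common median). In the IGF axis 2 of 14 measured genes were higher in basal epidermis, the binding protein Igfbp3 (12731 and 2168, 5.87-fold) and the protease Htra1 (6157 and 1382, 4.45-fold). Another 3 were higher in ORS, the binding proteins Igfbp5 (187 and 1043, 5.56-fold), Igfbp2 (1541 and 6789.6, 4.41-fold) and Igfbp7 (2022 and 5315, 2.63-fold, but 1.09-fold on its other probe set). Igfbp4 read 9294 and 17678, which is 1.90-fold higher in ORS, while its 5 other measured probe sets had log2 ratios from -2.13 to -1.57. The median of the IGF list was -0.02 and became 0.16 with a common median.

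Guidance molecules, which steer axons and sort cells, differed in single genes. Of 42 measured, 4 were higher in basal epidermis and 5 in ORS, against 4.15% and 5.88% of all measured genes, with a median of -0.17. On the side of ORS, Sema3e was joined by the netrin Ntn4 (746 and 3949.7, 5.29-fold), the semaphorin receptor Nrp2 (288 and 1091, 3.78-fold), the Robo ligand Slit3 (116 and 374, 3.22-fold) and the ephrin Efnb2 (4815 and 9949, 2.07-fold). On the side of basal epidermis stood the semaphorin Sema3d (1278 and 135, 9.47-fold, and 2.10-fold on its other probe set), the Slit receptor Robo1 (2431 and 606, 4.01-fold), Sema4b (1167 and 508, 2.30-fold) and the ephrin receptor Epha2 (3165 and 1445, 2.19-fold). The other probe set of Robo1 gave 1.57-fold. The call of Sema4b was lost, with a log2 ratio of -0.025, when all its probe sets were averaged, although the others lay below the floor on both arrays.

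Transcription factors of epithelia were divided. Of 60 measured outside the Hox clusters, 12 were higher in basal epidermis and 9 in ORS, with a median of -0.02 (0.18 with a common median). Towards basal epidermis the furthest were Sox6 (762 and 77.5, at least 9.16-fold), the nuclear receptor Rora (3434 and 378, 9.09-fold), Ets1 (2743 and 635, 4.32-fold), the zinc finger factor Ovol1, Meis2 (569 and 151, 3.77-fold) and Sox21. Grhl3, which drives barrier formation, read 813 and 307 (2.65-fold). Towards ORS the furthest were Tbx1, the adipose and sebaceous regulator Pparg (181 and 1289, 7.11-fold), the zinc finger genes Bnc2 (718 and 3694, 5.15-fold) and Trps1 (130.4 and 514, 3.94-fold), and the homeobox gene Dlx2 (127 and 584, 4.59-fold), followed by Sox13 (113 and 367, 3.25-fold). Of 33 matched Hox genes 16 lay below the floor on both arrays. Of 17 measured, Hoxd8 (85.1 and 334, 3.92-fold), Hoxc13, Hoxb3 (407 and 1034, 2.54-fold) and Hoxb6 (238 and 495, 2.08-fold) were higher in ORS and Hoxc4 (426 and 137, 3.12-fold) higher in basal epidermis, with a median of -0.42. The other probe sets of Hoxd8 and Hoxb3 gave 1.39-fold and 1.47-fold.

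Cytokine and receptor genes were more often higher in basal epidermis than in ORS. Of 40 measured interleukins, chemokines and receptors 17 were higher in basal epidermis and 3 in ORS, with a median log2 ratio of 0.91. After Il6ra the furthest were the interleukin 1 family agonist Il1f9 (731 and 42.0, at least 8.78-fold), the decoy receptors Il1r2 (5974 and 823, 7.26-fold) and Il22ra2 (2545 and 417, 6.11-fold), the alarmin Il33 (2021 and 362, 5.58-fold) and the receptor chain Il20ra (429 and 37.0, at least 5.15-fold). The 3 genes higher in ORS were the chemokine Cxcl12 (888 and 3426, 3.86-fold), Il7 (218 and 615, 2.82-fold), a survival factor for lymphocytes, and the chemokine Cxcl14 (3947 and 8689, 2.20-fold). Interferon and antigen processing genes had 4 of 29 measured members higher in basal epidermis, 0 in ORS and a median of 0.42, with Oas1f followed by Ifit1 (359 and 152, 2.36-fold), Oas1a (978 and 439, 2.23-fold) and Xaf1 (1637 and 815, 2.01-fold). Antimicrobial genes were split, 3 of 12 measured being higher in basal epidermis (S100a9, S100a8 (2339.9 and 436, 5.36-fold) and Lyz1 (2225 and 1019, 2.18-fold)) and 4 in ORS (Lcn2, Bpifc (165 and 421, 2.55-fold), Slpi (989 and 2285, 2.31-fold) and Defb6 (6433 and 13578, 2.11-fold)), with a median of 0.42.

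Markers of Langerhans cells, T cells and other immune cells were read beside the cytokine group. Of 27 matched markers 11 lay below the floor on both arrays, among them Cd207 of Langerhans cells (53.3 and 16.8) and the T cell receptor chains Cd3e (20.6 and 29.2) and Cd3g (23.7 and 32.2). Of 16 measured, 4 were higher in basal epidermis and 0 in ORS, with a median of 0.82. The 4 were Ptprc (223 and 75.8, at least 2.68-fold), Cd74 (1817 and 715, 2.54-fold), Coro1a (183 and 84.7, 2.16-fold, but 1.15-fold on its other probe set) and Thy1. The summed signal of the list was 12441 in basal epidermis, 6906 in ORS and 2743 in matrix. The part of these cells in the cytokine and interferon results was not tested.

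Extracellular matrix genes were higher in ORS in 15 of 51 measured and in basal epidermis in 4, with a median of -0.28. Egfl6, a matrix protein laid down by follicle cells, lay furthest on the ORS side with 40.6 and 628 (at least 7.55-fold). Chains of basement membrane collagen and laminin were next, with Col4a1 at 1583 and 7089.8 (4.48-fold), Col4a2 at 730.5 and 3771 (5.16-fold) and Lamb1 at 514 and 3784 (7.36-fold). They were followed by Col14a1 (104 and 400.4, 3.83-fold) and Itga1 (71.6 and 303, at least 3.64-fold). The 4 genes higher in basal epidermis were Lamb3, the anchoring fibril collagen Col7a1 (5271 and 1836, 2.87-fold), Lama1 (193 and 37.2, at least 2.32-fold) and Efemp1 (2529 and 1199.6, 2.11-fold). Fibroblast and dermal papilla markers had 1 of 14 measured members higher on each side (Col5a2 (443 and 1465, 3.31-fold) in ORS and Thy1 in basal epidermis), a median of -0.11 (0.04 with a common median) and summed signals of 23929 and 25773. Of these, Col1a2 read 4970.4 and 4993 and Pdgfra lay below the floor on both arrays. Over all measured genes 4.15% were higher in basal epidermis and 5.88% in ORS.

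Junction genes were higher in basal epidermis in 9 of 33 measured and in ORS in 4, with a median of 0.36. The 9 included the desmosomal cadherins Dsg1a, Dsg1b (347 and 119, 2.91-fold) and Dsc1 (1219 and 476, 2.56-fold), the connexin Gjb5 (377 and 114, 3.32-fold), the envelope crosslinker Evpl (1361 and 589, 2.31-fold) and Cdh13 (2327 and 1064, 2.19-fold). The 4 were the connexins Gjb2 (1074 and 6848, 6.38-fold) and Gjb6 (517 and 2789.9, 5.39-fold), the claudin Cldn8 (155 and 497, 3.22-fold) and the plakophilin Pkp2 (45.2 and 185, at least 2.22-fold). Desmoplakin (Dsp), the desmosome's link to keratin, read 24035 and 20322.

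Sebaceous gland markers had the lowest median of the lists with at least 5 measured members, on the signals as deposited. Of 15 measured, 12 were at least 2-fold higher in ORS and 0 in basal epidermis, with a median of -1.86. Far2, which reduces fatty acids to the alcohols of wax, read 335 and 3188 (9.53-fold), Cidea, a lipid droplet protein, 367 and 2876 (7.83-fold), and Elovl3, which elongates fatty acids, 401 and 2283 (5.69-fold). Pparg, Scd3 (161 and 810.2, 5.03-fold) and Elovl6 (1069 and 4736, 4.43-fold) completed the 6 furthest. The summed signal of the list was 55716 in basal epidermis, 114006 in ORS and 47197 in matrix.

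Lipid and detoxification lists were read beside the sebaceous markers, whose part in these results was not tested. The 20 measured cholesterol synthesis genes had 7 higher in ORS and 0 in basal epidermis, with a median of -0.72, led by Mvd (128 and 482, 3.75-fold) and Idi1 (1634 and 5546, 3.39-fold), enzymes of its isoprenoid steps, and followed by Insig1 (806 and 2249, 2.79-fold), Lss (370.1 and 1009.9, 2.73-fold), Srebf1 (2379 and 5061, 2.13-fold) and Nsdhl (941 and 1999, 2.12-fold). Barrier lipid genes were split by enzyme. The ceramide synthase Cers3, which makes the very long ceramides of the epidermal barrier, was higher in basal epidermis with 1561 and 265 (5.89-fold), as were the cholesterol sulfotransferase Sult2b1 (316 and 79.0, at least 3.80-fold) and the acylceramide enzyme Pnpla1 (240.2 and 92.4, 2.60-fold). The other synthase, Cers4, was higher in ORS with 551 and 4567 (8.30-fold), as were the hydroxylase Fa2h (768 and 3704, 4.82-fold), the desaturases Scd1 (6636 and 24028, 3.62-fold) and Scd2 (1179 and 3144, 2.67-fold), the acyltransferase Dgat2 (448 and 1596, 3.56-fold) and Elovl6. Scd1, Dgat2 and Elovl6 are 3 genes that the sebaceous list also holds. Of 26 measured barrier lipid genes 3 were thus higher in basal epidermis and 6 in ORS, with a median of 0.06 (-0.08 when matched on the hybridisation controls). Of 22 retinoid and steroid genes 8 were higher in ORS and 0 in basal epidermis, with a median of -0.42 (0.02 with the floor at the 75th percentile). Among the 8 were Cyp1b1 (91.3 and 452, 4.95-fold), Lrat (64.8 and 261, at least 3.14-fold), Cyp1a1 (79.4 and 215, at least 2.58-fold), Cyp2g1 (146 and 357, 2.44-fold), Aldh1a3 (85.3 and 203, 2.38-fold) and Hsd11b1 (68.3 and 187, at least 2.25-fold). The other probe sets of Cyp1b1 and Lrat gave 1.59-fold and 1.58-fold. Of 26 glutathione and NRF2 target genes 5 were higher in ORS, namely Gsta3 (44.4 and 655, at least 7.87-fold), Gclc (999.7 and 5057, 5.06-fold), Gstm5 (1785 and 5285, 2.96-fold), Cbr2 (2455 and 6689, 2.72-fold) and Gclm (2354 and 6173, 2.62-fold), where Gclc and Gclm are the subunits of the first enzyme of glutathione synthesis. In that list Gsta2 (279.8 and 33.3, at least 3.36-fold) was higher in basal epidermis, and the median was -0.28.

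Muscle-type and other markers were read in the same way. Endothelial and muscle markers had 2 of 8 measured members higher in ORS, Tagln and Acta2 (1331 and 7544, 5.67-fold), 0 in basal epidermis and a median of -0.44, which became 0.11 when all probe sets of a gene were averaged. Their summed signals were 2549 in basal epidermis, 10872 in ORS and 1763 in matrix, and 9 of 17 lay below the floor on both arrays, among them the smooth muscle myosin Myh11 (46.9 and 72.2) and the endothelial Pecam1 (38.4 and 53.5) and Kdr (65.4 and 67.9). The part of muscle-type cells in the signals of Tagln, Acta2 and Myl9 was not tested. Melanocyte markers had 1 of 8 measured members higher in ORS (Sox10 (68.5 and 180.4, at least 2.17-fold)), against 5.88% of all measured genes. Their summed signals were 1926 and 2110 and their median -0.10 (0.04 with a common median). Of 11 Merkel cell markers 9 lay below the floor on both arrays, including Krt20, Atoh1, Sox2 and Isl1. Of the 2 measured, Krt8 (67.5 and 477, at least 5.73-fold) was higher in ORS and Krt18 read 219 and 320.1, for a list median of -1.53.

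All 46 measured cell cycle genes lay within 2-fold, where 90.0% of all measured genes did, from -0.42 to 0.67 in log2 ratio, with a median of 0.00 (-0.14 when matched on the hybridisation controls). Mki67 read 3633 and 3834 and Top2a 3792 and 4107, against 9534 and 7515 in matrix. Of 6 measured cell cycle inhibitors 1 passed 2-fold, Cdkn1a, the p53 target, with 13420 and 5298 (2.53-fold higher in basal epidermis), and the median was 0.20. AP-1 and immediate early genes, which cell isolation is known to induce, were bright on both arrays, Fos at 23786 and 22014 and Jun at 26706 and 23515. Of 23 measured, 3 were higher in basal epidermis, Fosl1 (14508 and 4903, 2.96-fold), Gadd45b (7890.3 and 3310.1, 2.38-fold) and Klf2 (1057 and 505, 2.09-fold), with a median of 0.23. Of 30 measured genes of the Polycomb list 2 were higher in basal epidermis, Kdm6b (6689 and 2964, 2.26-fold) and Jarid2 (1919 and 934, 2.06-fold). Kdm6b is a demethylase and not a Polycomb subunit. The median of the list was -0.09 (0.10 with a common median). All other measured probe sets of Kdm6b and Jarid2 lay under 2-fold. Over all measured genes 4.15% were higher in basal epidermis and 5.88% in ORS. Ezh2 read 2563 and 2151 and Ezh1 401 and 380.1. Among 23 measured ion channels, transporters and carbonic anhydrases 5 were higher in basal epidermis, namely Clca2, Ano1, the glycerol channel Aqp3 (7638 and 3112, 2.45-fold), the glucose transporter Slc2a1 (15659 and 7679.9, 2.04-fold) and the calcium channel Trpv6 (173 and 86.3, 2.00-fold). In ORS 3 were higher, Slc1a3 (189.7 and 949, 5.001-fold), Slc2a3 (85.8 and 286, 3.33-fold) and Kcnk1 (499.5 and 1590.1, 3.18-fold), and the list median was 0.15 (-0.23 with the floor at the 25th percentile). All 12 measured housekeeping genes lay within 2-fold, as did 90.0% of all measured genes, and their median was 0.12 (-0.02 when matched on the hybridisation controls). Actb read 24145 and 21295 and Hprt 6193 and 6131.

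The same 2 populations of Ezh1/2 2KO mice, measured on separate arrays, gave a second reading that differs in genotype and is no replicate. Of 11966 genes measured in that pair, 517 (4.32%) were higher in basal epidermis and 805 (6.73%) higher in ORS. Higher in basal epidermis in both genotypes were 166 genes, which is 35.3% of the WT list and 32.1% of the 2KO list. Higher in ORS in both were 272 genes, 40.8% and 33.8% of the lists. Of the WT genes higher in basal epidermis 453 were measured in the 2KO pair, 362 of them with a ratio above 0, and the median log2 ratio was 1.44 in WT and 0.67 in 2KO. Of the WT genes higher in ORS 640 were measured in 2KO, 544 of them below 0, with medians of -1.45 and -0.84. All genes measured in the 2KO pair had a median of -0.02. Both sets were chosen for a WT ratio of at least 2-fold, so their WT medians lie past 2-fold by that choice. A 2KO median nearer to 0 is therefore no measure of a change between the genotypes. Opposite calls were made for 11 genes higher in WT basal epidermis and 12 higher in WT ORS.

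By list, the suprabasal and the ORS and stem cell genes had most of their calls on the same side in 2KO as in WT, while the sebaceous, cholesterol, glutathione and cornified envelope genes had other counts in 2KO than in WT. The suprabasal list had 17 of 24 measured members higher in 2KO basal epidermis and 0 in 2KO ORS (median 2.01), and Krt1 read 17735 and 872. The ORS and stem cell list had 24 of 44 higher in 2KO ORS and 2 in 2KO basal epidermis (median -1.11), with Lhx2 at 520.2 and 5050.3 and Lgr5 at 150.0 and 2683. Extracellular matrix genes had 24 of 51 higher in 2KO ORS and 1 in 2KO basal epidermis (median -0.84). The sebaceous list had 3 of 14 higher in 2KO ORS (median -0.06), and Far2 read 74.8 and 246. Glutathione genes, with 5 calls in ORS and 1 in basal epidermis in WT, had 0 of 24 higher in 2KO ORS and 6 in 2KO basal epidermis (median -0.28 in WT and 0.39 in 2KO). Cholesterol synthesis genes, with 7 calls in WT ORS, had 0 of 20 higher in 2KO ORS and 1 in 2KO basal epidermis (median -0.17). Retinoid and steroid genes had 1 of 20 higher in 2KO ORS and 2 in 2KO basal epidermis (median 0.15), against 8 and 0 in WT. Cornified envelope genes had 10 of 20 higher in 2KO basal epidermis and 1 in 2KO ORS (median 0.94), against a WT median of -0.20. Interleukins, chemokines and receptors had 10 of 41 higher in 2KO basal epidermis and 6 in 2KO ORS (median 0.11). Krt77 read 112 and 68.8, near the floor on both. These differences between the genotypes were not tested.

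**Figure D5:**
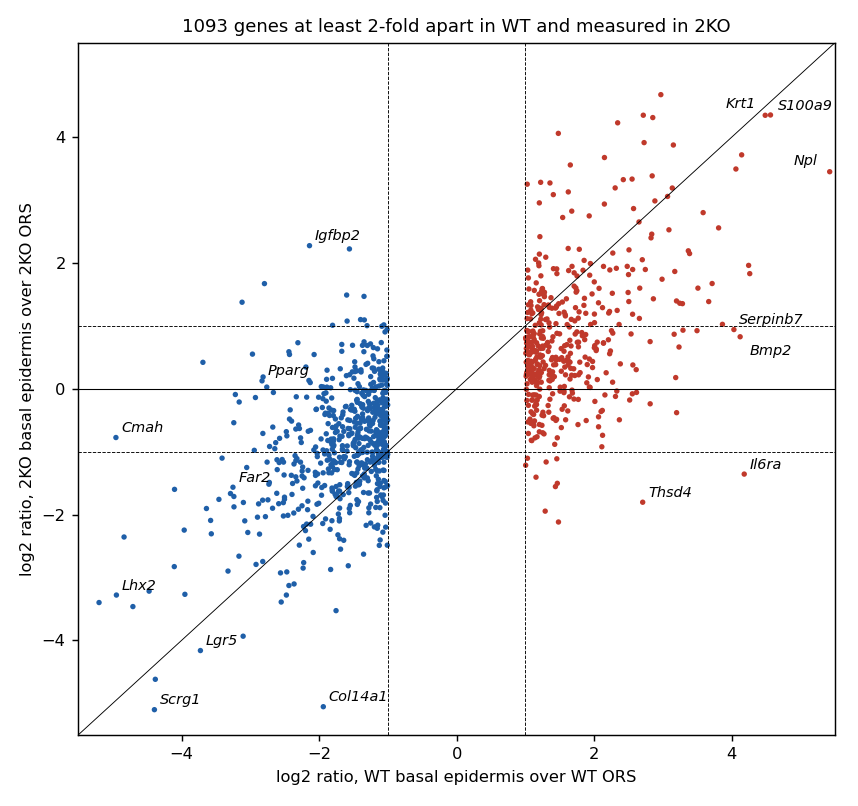
Log2 ratio of basal epidermis over ORS in WT (x) and 2KO (y) for the 1093 genes at least 2-fold apart in WT and measured in 2KO, red for genes higher in WT basal epidermis and blue for genes higher in WT ORS, with dashed lines at 2-fold and a solid diagonal at equality. Krt1 and Lhx2 lie on the same side in both genotypes, and Il6ra (4.18 and -1.36) and Igfbp2 (-2.14 and 2.27) lie on opposite sides.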

How the data were processed

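RNA was measured on 6 Affymetrix arrays, 1 per population and genotype, and this comparison uses the 2 arrays of WT basal epidermis and WT ORS. The design text names both MOE430A 2.0 and MOE430v2, and the table holds 45101 probe sets. The authors deposited 1 intensity per probe set and array, not log-transformed. The submitters' processing notes name MAS5, whose version is not given in the sources used here. Each array has a 2% trimmed mean of 500, so the arrays had been scaled before deposit, and signals were used without further scaling. The number of arrays limits the precision.

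Probe sets were named through the platform annotation (34945 with 1 gene, 932 with several and 9160 not named), and 64 control probe sets were left out. Each gene was read from its brightest probe set, by the log2 mean across the 6 arrays. Log2 ratios of floored signals and the 2-fold rule were computed in Python 3.11.15 with pandas 2.3.3 and numpy 2.4.6. The code was also run on simulated data with 4-fold changes in genes well above the floor and little noise. That run says nothing about genes near the floor, changes near 2-fold or the noise between real arrays.

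Members and the 37 gene lists (982 of 1053 genes matched) were chosen with earlier results of these data known. The text names Krt1, Krt77, Sox9 and Lhx2, the 20 genes furthest each way without clone names, up to 6 members per list and direction, and any member of a list of up to 16 genes. Lor, Krt17 and other members named within 2-fold or outside these limits, and the gene families, were chosen after their values were seen. Floors, scalings, probe set rules and folds were varied. Promoters were matched by symbol for 9167 measured genes.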

Additional observations from a re-analysis of the deposited data

Results flagged for a closer look

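In 3 genes of the lists the difference between basal epidermis and ORS ran one way in WT and the other way in 2KO, past 2-fold in each. Il6ra had a log2 ratio of 4.18 in WT (2013 and 111; its other probe set gave 1.63) and -1.36 in 2KO (208 and 533). Igfbp2 had -2.14 in WT (1541 and 6789.6) and 2.27 in 2KO (14158 and 2928). Trpv6 had 1.003 in WT (173 and 86.3) and -1.22 or lower in 2KO (61.9, below the floor, and 193). Its WT ratio lay at the 2-fold line and fell below it when the arrays were matched on the hybridisation controls. With 1 array per group the difference was not tested.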

How the results depend on the processing

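With the floor at the 25th percentile the counts of genes higher in basal epidermis and in ORS, 470 and 666 as reported, were 765 and 1351, and with the floor at the 75th percentile 246 and 277. A fold of 1.5 gave 1029 and 1457, a fold of 3 gave 193 and 275, and counting every probe set gave 715 and 1085. The genes higher in basal epidermis in both genotypes and the genes higher in ORS in both genotypes, 166 and 272 as reported, numbered 72 and 92 with the floor at the 75th percentile, 269 and 157 with a common median, 408 and 683 at 1.5-fold and 65 and 90 at 3-fold, and those in ORS 502 with the floor at the 25th percentile. The median of the Merkel list became 0.17 with the floor at the 25th percentile. With all probe sets averaged Erbb3 became -0.62 and Sema4b -0.025, where the average took in probe sets below the floor on both arrays. The causes were not tested further, beyond the smaller or larger set of genes that a floor or fold admits. Of 37 list medians, 18 changed sign in at least 1 alternative, in most cases from a value near 0, and 19 in none. Of 204 genes past 2-fold named by rule, 144 kept direction and 2-fold in every alternative that gave a value and 202 kept direction. Genes named outside the rules were not part of this count. Losses of 2-fold were most frequent with the floor at the 75th percentile (24 of 166) and with all probe sets averaged (20 of 196), and 13 of 204 fell below 2-fold when matched on the hybridisation controls and 7 of 204 with a common median. No paired analysis was possible because each group has 1 array. Signals near the floor carry the least information, and 1 array per group allows no estimate of error.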

Other observations

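Other families were looked at by symbol after the values had been seen, and are given as counts with no test. Of 12 measured Serpinb genes, which inhibit proteases inside and outside keratinocytes, 8 were higher in basal epidermis and 0 in ORS, with a median log2 ratio of 2.17. Besides those named above they were Serpinb12 (487 and 39.0, at least 5.86-fold), Serpinb3a (421 and 26.4, at least 5.06-fold), Serpinb11 (1094 and 230.0, 4.76-fold), Serpinb8 (1508 and 352, 4.28-fold) and Serpinb5 (14750 and 6803, 2.17-fold). Of 8 measured Mmp genes, matrix metalloproteinases, 4 were higher in basal epidermis and 0 in ORS, with Mmp3 followed by Mmp13 (727 and 230.2, 3.16-fold), Mmp9 (262 and 60.8, at least 3.15-fold) and Mmp10 (228 and 35.96, at least 2.74-fold). Of 9 measured Acot genes, acyl-CoA thioesterases, 4 were higher in ORS (Acot5 (59.9 and 514, at least 6.18-fold), Acot7 (500.3 and 1828, 3.65-fold), Acot1 (1623 and 5592, 3.45-fold) and Acot6 (147 and 499, 3.39-fold)) and 1 in basal epidermis (Acot9 (4984 and 2262, 2.20-fold)).

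Outside the lists and the leading genes, the ORS array was also brighter for the neurohypophysial hormone receptors Avpr1a (147 and 1371, 9.30-fold) and Oxtr (85.1 and 669.9, 7.88-fold) and for the steroid hydroxylase Cyp17a1 (281 and 2137, 7.60-fold). In 2KO basal epidermis and ORS the same genes read 56.0 and 88.7, 22.4 and 26.2, and 104 and 115. The matrix proteoglycan Bgn (671 and 5768, 8.60-fold) and the secreted factor Ccn2 (373 and 3204, 8.58-fold) were higher in ORS, and read 357 and 5460.2, and 514 and 1799, in 2KO. These genes were chosen after their values were seen.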
